A study of Caenorhabditis elegans with 2 samples.

Results

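MicroRNA (miRNA) genes were examined in a map of where the DM-domain transcription factor DMD-4 is found on the genome of late embryos of the nematode Caenorhabditis elegans. The members were all 261 genes annotated as miRNA among the 46926 genes of the Ensembl annotation of assembly WBcel235 (also called ce11), and none was chosen by its binding values. They comprised 33 genes on chromosome I, 49 on II, 27 on III, 50 on IV, 28 on V and 74 on X, with a median annotated length of 95 bp.

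The data came from chromatin immunoprecipitation followed by sequencing (ChIP-seq), in which DNA bound to a protein is pulled down with an antibody and sequenced. Whole hermaphrodite late embryos of strain OP418, genotype unc-119(tm4063) III; wgIs418, were collected 5 h after egg bleaching, a treatment that leaves only eggs alive and so synchronizes the animals. They carried an inserted transgene that expresses DMD-4 with a C-terminal GFP-FLAG tag, the chromatin was sonicated, and the precipitating antibody was against GFP per the sample descriptions, while the antibody field of the labels reads dmd-4. There was 1 group with 2 biological replicates and no comparison group, so no test between conditions was possible. Whole embryos mix all cell types, and the cells in which the tagged protein bound are not known from these data.

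The authors deposited region lists. Candidate regions, 30000 of them, were listed for each replicate and again for the replicates pooled. The authors named these lists peaks and background, so a candidate alone is not evidence of binding. Of the pooled candidates, 506 (1.69%) had a deposited q of at most 0.05. A shorter list of 652, called optimal by the authors, had passed a filter on the irreproducible discovery rate (IDR), a measure of how alike 2 replicates rank regions. Each region had a summit, its strongest position, and a signal, the caller's strength of the region relative to control in arbitrary units. Candidates were ranked by signal within their list, with rank 1 the strongest. Pooled signals ran up to 1433 and the optimal list ended at 106.4. The locus of dmd-4 itself had a candidate of pooled rank 114, inside the optimal list. Each miRNA gene was given its strongest pooled candidate with a summit within 500 bp of the annotated gene. The 95% intervals below are exact (Clopper-Pearson) and cover counting error over genes only. Sequencing depth is unknown from the lists.

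MiRNAs are short RNAs that pair with messenger RNAs, mostly through a stretch near the 5′ end called the seed, and repress them. They are cut from a hairpin in a longer transcript by the nuclease Drosha and then by Dicer, and act inside an Argonaute protein. MiRNAs with the same seed form a family and can share targets. In C. elegans the mir-35 and mir-51 families are needed for embryonic development, while lin-4 and let-7 control the timing of larval cell fates. DM-domain proteins are named after Doublesex of the fruit fly and MAB-3 of C. elegans, regulators of sex-specific development.

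Mature miRNAs of some of the genes that carry strong regions are shown first, because several share a seed. They are written 5′ to 3′ with the seed (bases 2 to 8) in capitals, read from the RefSeq WBcel235 genome sequence at the coordinates of the mature arm in Ensembl release 115. All 6 members of the mir-51 family have the same seed, on the 5p arm of the hairpin in mir-51, mir-52 and mir-53 and on the 3p arm in mir-54, mir-55 and mir-56.
mir-51: uACCCGUAgcuccuauccauguu
mir-52: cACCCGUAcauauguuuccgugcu
mir-53: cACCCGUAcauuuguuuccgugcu
mir-54: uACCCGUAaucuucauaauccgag
mir-55: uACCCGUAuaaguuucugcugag
mir-56: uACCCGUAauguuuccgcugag

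The other mature miRNAs at strong regions, all from the 3p arm, belong to several families. The seed of mir-35 and mir-42 is shared by 8 genes, that of mir-80 by 6 genes, that of mir-43 by 4 and that of mir-44 by 4. The miRNA mir-58a is grouped with mir-80 as a relative of bantam of the fruit fly, but its seed was not identical to that of mir-80. Although mir-42, mir-43 and mir-44 lie side by side in one cluster, they carry different seeds.
mir-35: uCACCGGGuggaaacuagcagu
mir-42: uCACCGGGuuaacaucuacaga
mir-80: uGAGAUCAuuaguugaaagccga
mir-58a: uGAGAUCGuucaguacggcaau
mir-43: uAUCACAGuuuacuugcugucgc
mir-44: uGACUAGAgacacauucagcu

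The 201 bp around the summit is shown for 4 of the 10 optimal-list regions at miRNA genes. The 4 were picked not by rank but because these windows hold short sequences counted further below. All 4 windows hold CGCACA, against 5 of all 10. They are written on the strand of the miRNA gene, and capitals mark matches on either strand to CGCACA, to the repeats GAGAGA or GCGCGC, or to GTTCGA, with overlapping matches run together. The windows are IV:11026099-11026299 (minus strand) for mir-51, III:8865426-8865626 (minus) for mir-80, II:11537209-11537409 (plus) for mir-35 and II:11889467-11889667 (plus) for mir-42, all in ce11.
mir-51: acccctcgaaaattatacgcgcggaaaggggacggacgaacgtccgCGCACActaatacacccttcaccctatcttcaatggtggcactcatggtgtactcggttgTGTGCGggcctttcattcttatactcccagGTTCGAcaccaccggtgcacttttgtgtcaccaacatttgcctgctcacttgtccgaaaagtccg
mir-80: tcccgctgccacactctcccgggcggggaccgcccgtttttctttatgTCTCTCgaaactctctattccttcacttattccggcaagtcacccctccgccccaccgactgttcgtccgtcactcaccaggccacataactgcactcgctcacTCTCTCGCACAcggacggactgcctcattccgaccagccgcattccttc
mir-35: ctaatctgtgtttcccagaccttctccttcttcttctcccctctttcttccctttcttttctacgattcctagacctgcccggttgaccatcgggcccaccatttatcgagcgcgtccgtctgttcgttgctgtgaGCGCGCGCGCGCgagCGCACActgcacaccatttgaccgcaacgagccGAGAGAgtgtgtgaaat
mir-42: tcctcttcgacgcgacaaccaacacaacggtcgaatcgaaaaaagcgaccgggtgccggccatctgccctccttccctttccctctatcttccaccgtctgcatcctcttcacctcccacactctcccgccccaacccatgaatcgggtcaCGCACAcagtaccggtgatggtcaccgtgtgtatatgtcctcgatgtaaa

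At mir-52 and mir-53 the summit lay so close to the hairpin that the same window reaches the mature miRNA, here in capitals. The windows are IV:14033889-14034089 (plus) and IV:11027600-11027800 (minus) in ce11.
mir-52: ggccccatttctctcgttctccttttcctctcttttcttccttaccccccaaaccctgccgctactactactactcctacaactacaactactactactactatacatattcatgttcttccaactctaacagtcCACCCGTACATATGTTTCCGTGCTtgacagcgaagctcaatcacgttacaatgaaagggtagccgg
mir-53: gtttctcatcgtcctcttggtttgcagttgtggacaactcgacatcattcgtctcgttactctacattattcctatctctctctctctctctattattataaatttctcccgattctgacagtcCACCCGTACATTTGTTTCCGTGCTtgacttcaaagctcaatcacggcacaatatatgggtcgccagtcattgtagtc

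A candidate was found at 134 of the 261 miRNA genes (51.3%, 95% interval 45.1 to 57.6), and the other 127 had none. Of all nuclear windows as wide as the search window of a miRNA gene of median length (1095 bp), 27.8% held a candidate summit, and 38.7% of the 19973 nuclear protein-coding genes had one within 500 bp of a transcript start. An optimal-list region was present at 16 miRNA genes (6.13%, 3.54 to 9.76), against 0.679% of those windows, 1.65% of protein-coding genes and 2.17% of all pooled candidates. The count rests on the distance, since within 250 bp only 5 miRNA genes (1.92%, 0.625 to 4.41) had one, against 0.372% of nuclear windows searched at that distance. At 12 miRNA genes (4.6%, 2.4 to 7.89) the strongest region had a deposited q of at most 0.05, against 1.69% of all candidates. The 4 genes with an optimal-list region of higher q were mir-54 (−log10 q 1.12) and mir-42, mir-43 and mir-44 (−log10 q 1.10). These shares are descriptions without a test, and the denominators of genes, windows and candidates differ.

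Neighbouring miRNA genes shared regions. The 134 genes had 114 distinct strongest regions, 13 of which served 33 genes, and the 16 genes with an optimal-list region had 10 distinct ones. Among the 114 distinct regions, 10 (8.77%) ranked 1 to 652, where 2.17% of all candidates lie, and 7 (6.14%) ranked 653 to 1138, where 1.62% lie. The rank 1138 is used because the optimal list of the older build ce10 ran to that length, down to a signal of 88.05. Between ranks 1139 and 10000 there were 39 (34.2%), against 29.5% of all candidates, while ranks 20001 to 30000 held 28 (24.6%), against 33.3%.

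Most miRNA genes with a candidate were not at strong sites. The median pooled rank over the 134 genes was 10373, against 13988 for the best candidate of the nuclear windows that held one and 15000.5 for all candidates. For protein-coding genes with a candidate within 500 bp of a start the median best rank was 11240. It was 2274 for tRNA genes, 4167 for snoRNA genes and 7215 for snRNA genes. The median signal over the 134 miRNA genes was 47.11, against 41.1 for all candidates, and the lowest was 29.54. For small structural RNA genes the same search gave an optimal-list region at 125 of 612 nuclear tRNA genes (20.4%), 51 of 346 snoRNA genes (14.7%) and 4 of 129 snRNA genes (3.1%), so the miRNA share of 6.13% lay below that of tRNA and snoRNA genes.

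**Figure D1:**
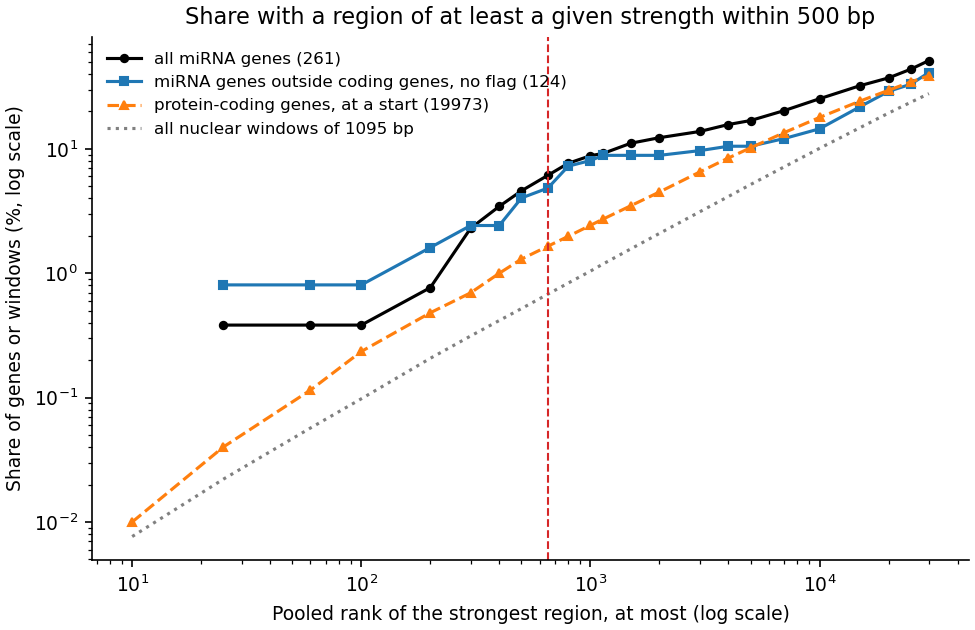
Share of genes or windows (%, log scale) whose strongest region within 500 bp had at most the pooled rank on the x axis (log scale). Lines stand for all 261 miRNA genes, the 124 miRNA genes outside protein-coding genes with no flag, 19973 protein-coding genes at a start and all nuclear windows of 1095 bp, the dashed vertical line is rank 652, and shares of 0 are not drawn. At rank 652 the shares were 6.13% for all miRNA genes, 4.84% for the 124 miRNA genes, 1.65% for protein-coding genes and 0.679% for windows, and at rank 30000 they were 51.3%, 41.1%, 38.7% and 27.8%.

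The strongest miRNA region lay at mir-51 (IV:11026013-11026112, minus strand). The region, IV:11026049-11026287, overlapped the annotated gene and had a signal of 382.24 in the pooled list, with pooled rank 18. Its signal was 173.43 in replicate 1 (rank 25) and 210.05 in replicate 2 (rank 20), so both replicates placed it near the top. The summit was 87 bp upstream of the 5′ end of the annotated hairpin, which is the processed precursor and not the start of transcription. The gene lies outside protein-coding genes, 3073 bp from the nearest protein-coding start, that of hrg-5.

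Other members of the mir-51 family followed. At mir-52 (IV:14034008-14034107), which also lies outside protein-coding genes, the region had signal 191.32 and pooled rank 147, with its summit 19 bp upstream of the hairpin. It ranked 75 in replicate 1 and 336 in replicate 2. The genes mir-54, mir-55 and mir-56 form a cluster on X, in an intron of F09A5.3 and on the strand opposite to that host gene. One region in this cluster, X:13144222-13144671, had signal 167.07 and pooled rank 204, ranked 521 in replicate 1 and 118 in replicate 2, and was the strongest region for mir-55, mir-56 and mir-55b. It lay downstream of mir-56 and mir-55 and upstream of mir-55b, a miRNA gene annotated on the opposite strand of mir-55.

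The other region of the X cluster, X:13145133-13145582, was upstream of mir-54, the first gene of the cluster, with its summit 264 bp before the hairpin. It had signal 110.39 and pooled rank 590, and ranked 1104 in replicate 1 and 437 in replicate 2. The sixth member, mir-53, is the neighbour of mir-51 on the same strand, and its region had signal 105.49 and pooled rank 667, just below the last optimal-list signal of 106.43. Its summit was 9 bp upstream of the hairpin, and it ranked 665 in replicate 1 and 920 in replicate 2. The whole family, at 4 loci, therefore ranked between 18 and 667 with a median of 204, and 5 of its 6 members had an optimal-list region.

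At mir-80 (III:8865270-8865367, minus), a bantam relative, the region had signal 162.34 and pooled rank 222, with its summit 159 bp upstream. It ranked 405 in replicate 1 and 187 in replicate 2. The gene is isolated: the nearest protein-coding start, of K01F9.2, was 11761 bp away. At mir-2 on chromosome I, a miRNA conserved in flies, the region had signal 132.04 and pooled rank 360, with its summit 339 bp upstream. Its replicate ranks were close to each other, 371 in replicate 1 and 337 in replicate 2. The gene lies in an intron of ppfr-1 on the same strand, 13693 bp from the nearest protein-coding start.

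The cluster of mir-35 to mir-41 on II lies in an intron of Y62F5A.9, on the opposite strand. Its first genes, mir-35 and mir-36, shared the region II:11537084-11537533 with signal 128.57 and pooled rank 381, and the summit was 299 bp upstream of mir-35. This region ranked 939 in replicate 1 and 280 in replicate 2. The summit was more than 500 bp from mir-37, mir-38, mir-39, mir-40 and mir-41, whose strongest candidate was a weak one of rank 23780 and signal 33.55 that had no overlapping candidate in replicate 2. The last member of the family, mir-42, lies elsewhere on II at the head of a cluster with mir-43 and mir-44.

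The region at mir-42, mir-43 and mir-44, II:11889342-11889791, was the weakest of the 10, with signal 109.63 and pooled rank 600. It ranked 1171 in replicate 1 and 494 in replicate 2. The summit was 244 bp upstream of mir-42. A snoRNA gene, ZK930.15, lies 336 bp from mir-44, 447 bp from mir-43 and 549 bp from mir-42. The part of that gene in the result was not tested.

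The last optimal-list regions were at little-studied miRNA genes. At mir-8186-1 and mir-8186-2, which are annotated on opposite strands of one place at II:18637-18698, the region had signal 120.67 and pooled rank 458. It ranked 1219 in replicate 1 and 332 in replicate 2. At mir-1824 on I, in an intron of Y87G2A.18 on the opposite strand, the region had signal 119.75 and pooled rank 465, and ranked 515 in replicate 1 and 641 in replicate 2. Its summit was 271 bp beyond the 3′ end of mir-1824, and the start of Y87G2A.18 lies 243 bp from the miRNA gene. The host runs on the opposite strand, so its 5′ end lies on the same side of mir-1824 as the summit. Summit and start may therefore lie close together, and the distance between them was not computed. Whether the region belongs to the host promoter was not tested.

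**Figure D2:**
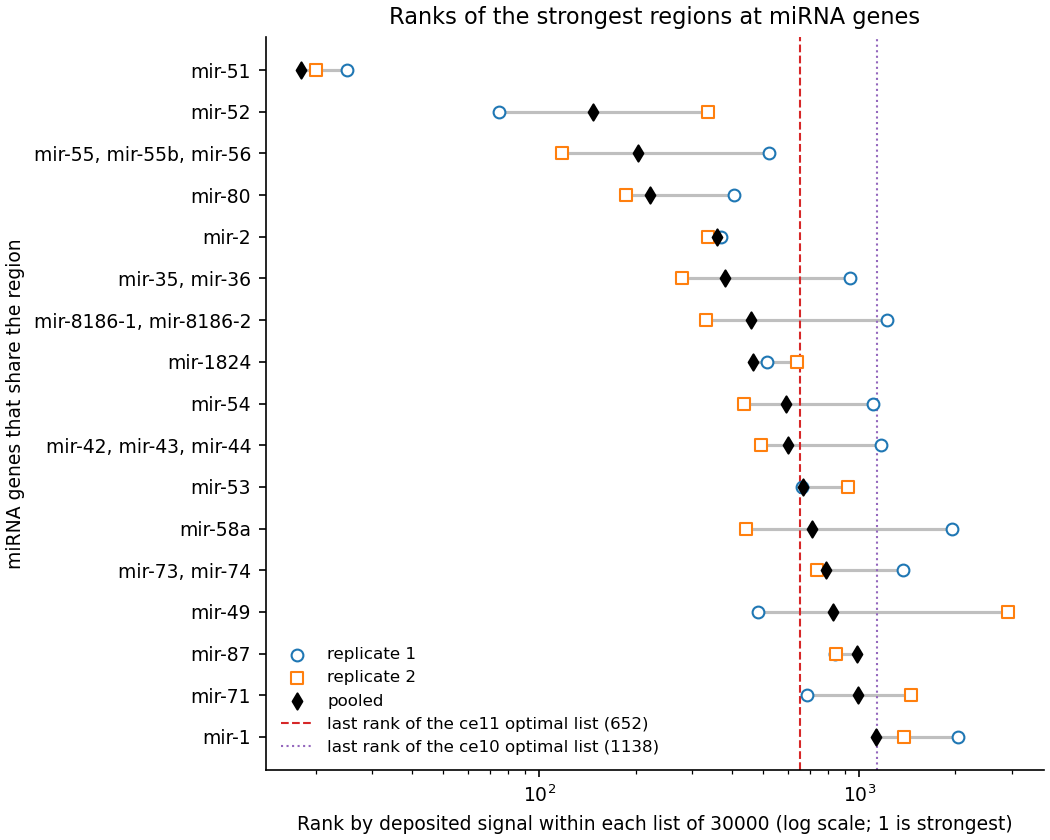
Rank within each list of 30000 (log scale, 1 is strongest) of the 17 distinct strongest regions at miRNA genes with a pooled rank of at most 1138. Circles are replicate 1, squares replicate 2 and diamonds the pooled list, with vertical lines at ranks 652 and 1138. At mir-51 all 3 symbols lie at ranks 18 to 25, while at mir-49 the replicates are at ranks 484 and 2927.

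Just outside the optimal list, after mir-53, came mir-58a with signal 102.56 and pooled rank 714. It is the namesake of the C. elegans bantam family and is encoded in an intron of Y67D8A.2 on the same strand. The region ranked 1956 in replicate 1 and 443 in replicate 2. The neighbours mir-73 and mir-74 shared a region of signal 99.27 and rank 786, which ranked 1371 in replicate 1 and 738 in replicate 2. At mir-49 the signal was 97.51 at rank 830, and of the 17 distinct regions ranked within 1138 it had the widest gap between replicates, with rank 484 in replicate 1 and 2927 in replicate 2.

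Several well-known miRNAs came next. At mir-87 the region had rank 988 and almost the same rank in both replicates, 842 and 849. The region of mir-71, a miRNA linked to lifespan, had rank 994, ranked 689 in replicate 1 and 1453 in replicate 2, and was 327 bp upstream of the gene in an intron of ppfr-1, the host of mir-2 as well. That of mir-1, a muscle miRNA conserved in mammals, had rank 1131 and lay 382 bp upstream, with ranks 2040 and 1382 in replicates 1 and 2. The deposited q was 0.305 at mir-71 and 0.381 at mir-1, both above 0.05.

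The timing miRNAs lay just outside rank 1138. The let-7 region had signal 87.59 and pooled rank 1158, ranked 3341 in replicate 1 and 1094 in replicate 2. Here the annotation gives a 1732 bp gene, X:14743590-14745321 (minus), so the summit, 696 bp from its 5′ end, lay inside it. The mature let-7 lies at X:14744234-14744255, and the distance of the summit from the hairpin was not computed. The search window of 500 bp either side of so long a gene was also wider than at other miRNA genes. At lin-4 the region had signal 86.40 and pooled rank 1213, with the summit 365 bp upstream, and ranked 968 in replicate 1 and 2608 in replicate 2. The deposited q of the lin-4 region was 0.414.

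All 10 optimal-list regions at miRNA genes overlapped a candidate of each replicate. Of these, 6 were among the top 652 of both replicates, namely the regions at mir-51, mir-52, mir-55 with mir-56, mir-80, mir-2 and mir-1824. The replicate 1 candidate at mir-52 overlapped the pooled region by less than 50% of one of them, and with a required overlap of at least 50% of each region this region had no match in replicate 1, which leaves 5 in the top 652 of both. The other 4, at mir-35, mir-8186-1, mir-54 and mir-42, were in the top 652 of replicate 2 only. The replicate 2 rank was the better one in 8 of the 10. Since the optimal list was built from the replicate rankings, this overlap is a description of the list and no independent check. Taking the top 652 of one replicate alone gave 10 miRNA genes for replicate 1 and 17 for replicate 2.

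Weaker regions were less well matched. Of all 114 distinct regions, 82 overlapped a candidate in both replicates, 17 had none in replicate 1 and 15 had none in replicate 2. Across the 82, Spearman's rho between the replicate ranks was 0.623, and across the 10 optimal-list regions it was 0.345. These are descriptions across regions, which share the same 2 libraries and were chosen by the pooled signal. The median rank over the 82 was 5329.5 in replicate 1 and 8015 in replicate 2.

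The genes were separated by place. Outside protein-coding genes lay 152 miRNA genes, of which 67 (44.1%, 36.0 to 52.4) had a candidate and 8 (5.26%, 2.3 to 10.1) an optimal-list region, with a median rank of 11582. In introns lay 97, of which 62 (63.9%, 53.5 to 73.4) had a candidate and 8 (8.25%, 3.63 to 15.6) an optimal-list region, with a median rank of 8923.5. The intervals for the optimal-list shares overlap. The 12 genes that overlap an exon or the edge of a protein-coding gene had a candidate in 5 cases and an optimal-list region in none (interval up to 26.5%).

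Intronic genes were also split by the strand of the host. With the host on the opposite strand, 6 of 30 genes (20.0%, 7.71 to 38.6) had an optimal-list region, against 2 of 67 (2.99%, 0.364 to 10.4) with the host on the same strand. A candidate was present at 66.7% (47.2 to 82.7) of the genes with a host on the opposite strand and at 62.7% (50.0 to 74.2) of those with a host on the same strand. The 6 genes are mir-54, mir-55, mir-56, mir-35, mir-36 and mir-1824, which rest on 4 regions at 3 loci, so they are not 6 independent cases. The 2 genes are mir-2 and mir-55b, and mir-55b shares its region with mir-55 and mir-56.

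A nearby start of another kind was flagged within 500 bp. A protein-coding start lay that near 54 miRNA genes, a tRNA gene near 4 and a snoRNA gene near 6, which makes 61 genes in all, since some were near more than one kind. Of these 61, 37 had a candidate and 3 (4.92%, 1.03 to 13.7) an optimal-list region, against 97 and 13 (6.5%, 3.51 to 10.9) of the other 200. The 3 were mir-1824, mir-43 and mir-44. The 4 miRNA genes near a tRNA gene all had a candidate, but a weak one: rank 16408 at mir-1829c, 24422 at mir-237, and 29785 at both mir-2212 and mir-1819.

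The 124 miRNA genes that lie outside protein-coding genes and had no flag were counted apart. A candidate was present at 51 of them (41.1%, 32.4 to 50.3), with a median pooled rank of 13376. An optimal-list region was present at 6 (4.84%, 1.8 to 10.2). These were mir-51, mir-52, mir-80, mir-8186-1, mir-8186-2 and mir-42. The next ones by rank were mir-53, mir-73, mir-74, mir-49 and mir-1, all already described. The genes mir-8186-1 and mir-8186-2 share one region, and that of mir-42 is also the region of the flagged mir-43 and mir-44. Flags were measured from the miRNA gene and not from the summit. The nearest protein-coding start to mir-8186-1, that of gmeb-1, was 840 bp away, and its distance from the summit was not computed.

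Summits lay more often before the hairpin than after it. Of the 10 distinct optimal-list regions, 7 (70.0%, 34.8 to 93.3) had the summit upstream, none inside and 3 downstream of the gene nearest to the summit, with a median position of -123 bp from the 5′ end. One of the 3, between mir-8186-1 and mir-8186-2, lay 285 bp downstream of the nearer gene and 286 bp upstream of the other. Over all 134 genes with a candidate, the summit was upstream at 75 (56.0%, 47.1 to 64.5), inside at 12 and downstream at 47. Of the search window of a gene of median length, 45.7% is upstream. Counting shared regions once gave 63 of 114 upstream (55.3%, 45.7 to 64.6), an interval that reaches that window share. With a search distance of 250 bp the upstream share over genes was 47.3%, and the window share at that distance was not computed.

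Genes on one strand with gaps of at most 1000 bp were joined into 227 genes and clusters, and summits were counted around the 5′ end of each. In the 500 bp upstream there were 83 summits, against 34.0 for the nuclear genome mean. In the first 500 bp downstream there were 54, and between 501 and 1000 bp upstream there were 26. For the 1138 strongest candidates the counts were 16 upstream and 2 downstream, against 1.27 for the genome mean. Strong summits also exceeded the mean farther out, with 9 more than 1000 bp and up to 2000 bp upstream and 5 from 1000 bp to just under 2000 bp downstream, against 2.55 for the genome mean in each. A summit between genes on opposite strands counts once for each.

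**Figure D3:**
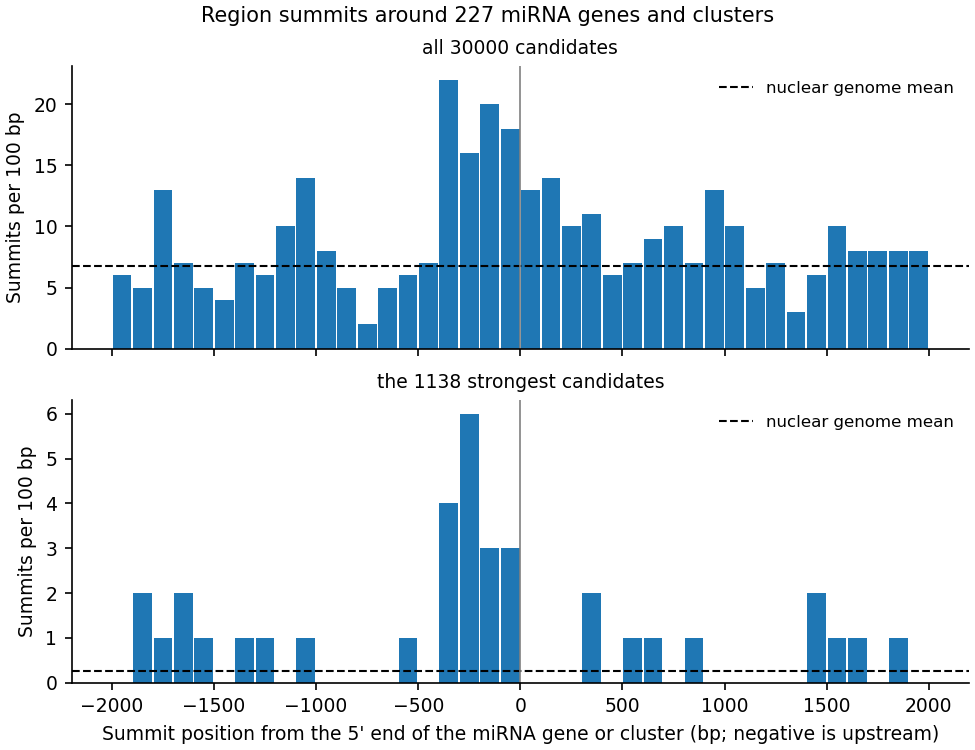
Number of region summits per 100 bp against the distance from the 5′ end of 227 miRNA genes and clusters (bp, negative is upstream), for all 30000 candidates (upper plot) and the 1138 strongest (lower plot). Dashed lines are the nuclear genome mean, 6.79 and 0.255 per 100 bp. The bars are highest within 400 bp upstream of the hairpin, and the 16 strong summits of the 500 bp upstream all lie in that stretch.

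Families are described by counts, beside a candidate share of 51.3% and an optimal-list share of 6.13% over all miRNA genes. The mir-35 family had a candidate at all 8 members and an optimal-list region at 3, on 2 regions. The mir-2 family had a candidate at all 4 members and an optimal-list region at 2, and the mir-44 family had a candidate at all 4 and an optimal-list region at 1. The region of mir-42, mir-43 and mir-44 is counted in all 3 of these families. In the bantam list, 6 of 8 had a candidate and 1, mir-80, an optimal-list region. This list leaves out mir-58c, which shares the seed of mir-80 and had no candidate. In the let-7 family 3 of 7 had a candidate, let-7, mir-84 (rank 3236) and mir-794 (rank 10407), and none was in the optimal list. The mir-48 and mir-241 genes, which act with let-7 in larval timing, had none.

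The remaining lists had no optimal-list region. In the lin-4 family both genes had a candidate, lin-4 at rank 1213 and mir-237 at 24422. Of the mir-63 family 4 of 5 had a candidate, the best at rank 3993 for mir-229. Among 12 miRNAs listed for neurons and muscle, 8 had a candidate. The best were mir-71, mir-1 and then mir-124, a miRNA of sensory neurons, at rank 2245 with a rank of 945 in replicate 1 and 8699 in replicate 2. The gene lsy-6, which sets left-right asymmetry of taste neurons, had no candidate. In the mir-72 list, 3 of 4 genes ranked within 1138: mir-71, which does not share the seed of the others, mir-73 and mir-74.

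Grouping by the seed alone, without the named lists, gave 16 groups of 3 or more genes. These held 67 genes, of which 13 had an optimal-list region, against 3 of the other 194 genes. Genes that share a region were counted singly, so these are not counts of separate cases. Among the 13, mir-55 and mir-56 share a region, as do mir-35 and mir-36, and also mir-42, mir-43 and mir-44. Among the 3, mir-8186-1 and mir-8186-2 share a region, and mir-55b has that of mir-55 and mir-56. The mir-51 seed group was the one in which all members ranked within 1138. The mir-2217 genes form 2 overlapping seed groups with 5 genes in all, none of which had a candidate.

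**Figure D4:**
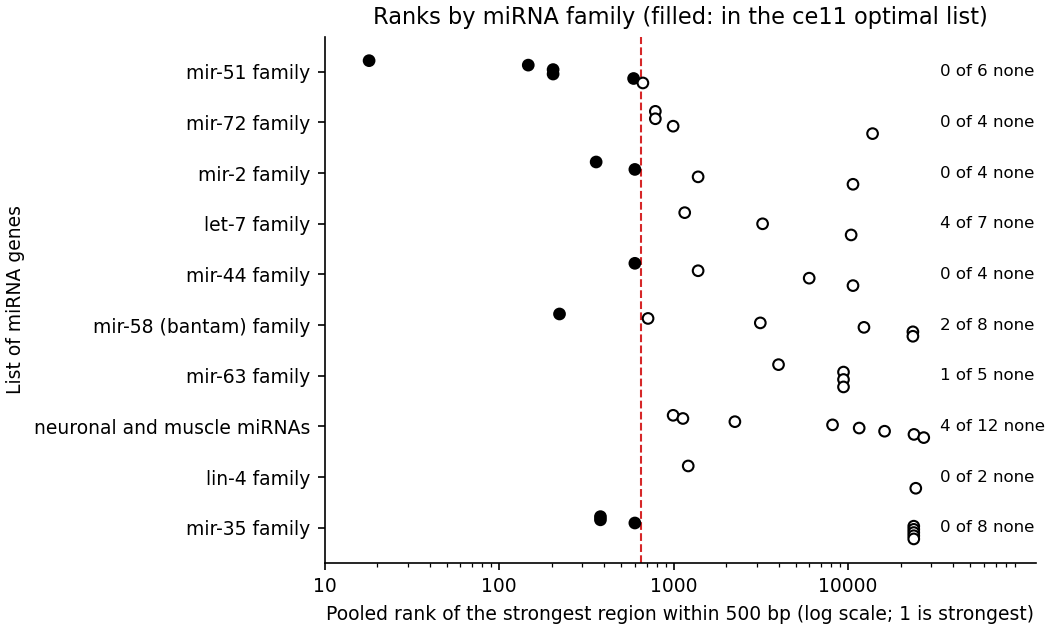
Pooled rank (log scale, 1 is strongest) of the strongest region within 500 bp of each gene in 10 lists of miRNA genes. Each point is a gene, filled where the region is in the ce11 optimal list, the dashed line is rank 652, and the figures at the right count listed genes without a candidate. The 6 genes of the mir-51 family lie at ranks 18 to 667, and 4 of 7 genes of the let-7 family have no candidate.

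The annotation held other short or antisense non-coding RNA genes under some summits. At 5 of the 17 regions with a rank within 1138, the summit lay inside one. The same share was not computed for all candidates or the whole optimal list, so this count has no background beside it. The mir-51 summit was in F36H1.17 (IV:11026131-11026219, minus), an 89 bp gene on the same strand as mir-51, 20 bp from its 5′ end. The letters GTTCGA, which also occur in the B box of tRNA gene promoters, stand in this window, but the nearest annotated tRNA gene was 205453 bp away. The mir-52 summit was in Y37A1B.330 and a second non-coding gene on the other strand. Summits at mir-73, mir-87 and mir-1 were in T24D8.11, F10C2.11 and T09B4.17.

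The sequence around summits was compared by short words within 100 bp of the summit, on either strand. CGCACA stood in 5 of the 10 optimal-list windows at miRNA genes and in 16.7% of all 114, against 21.0% of the optimal list and 6.14% of all candidates. GAGAGA stood in 5 of 10 and in 26.3% of the 114, against 36.0% and 15.5%. GCGCGC stood in 2 of 10 and 5.26%, against 15.6% and 3.29%, and GTTCGA in 2 of 10 and 10.5%, against 18.9% and 7.83%. The DM-domain core ACATTGT was in none of the 10 and in 4 (3.51%) of the 114, against 2.91% of the optimal list and 2.76% of all candidates.

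The words come with base composition. Mean GC content was 54.4% in the 10 windows and 43.7% in the 114, against 47.1% in the optimal list and 39.8% in all candidates, and its part in the word counts was not tested. In the windows printed above, mir-51 held CGCACA more than once, mir-80 held it beside GAGAGA with 1 base in common, and mir-35 held a GC repeat next to it. In all 17 windows with a rank within 1138, every 30-base word occurred once in the genome. The same count was not made for other candidates.

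Protein-coding genes of the miRNA pathway were read in a window from 1000 bp upstream to 200 bp downstream of a start. Of 26 listed genes 25 were found, 20 had a candidate and 4 an optimal-list region. In the same window, 40.0% of all nuclear protein-coding genes had a candidate and 2.05% an optimal-list region, and no test was made of the list. The 4 genes were nhl-2 (signal 233.35, rank 91), a cofactor of the miRNA effector complex, ain-1 (204.69, rank 124), a GW182 protein that binds Argonaute, alg-5 (202.35, rank 129), an Argonaute, and lin-66 (150.59, rank 265), a timing gene. The alg-5 region was also near the starts of the histone genes his-67 and his-68.

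The core enzymes were at weaker candidates. The main miRNA Argonaute alg-1 had rank 949, while alg-2 had 18329. Of the processing enzymes, dcr-1 (Dicer) had rank 7575, pash-1 14786 and drsh-1 (Drosha) 17096. Among targets of lin-4 and let-7, lin-14 had rank 1429 and lin-28 rank 1604, but lin-14 ranked 459 in replicate 1 and 12472 in replicate 2. Their fellow targets hbl-1 and lin-41 had ranks 6795 and 26501. The genes ain-2, xrn-1, lin-29, rde-4 and ebax-1 had no candidate. The median rank of the 20 was 5756.5, against 10828 for all protein-coding genes with a candidate in that window.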

How the data were processed

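DMD-4-GFP ChIP-seq regions of 2 biological replicates were used. The authors deposited narrowPeak lists with a signal per region, relative to control libraries per the deposited file listings, and a deposited −log10 q. The summit offset came from the same lists. Which aligner, peak caller and IDR cutoff were used is not given in the sources used here. Only the length and lowest signal of the ce10 optimal list were used, and no coordinates were converted. The last region on each chromosome ended within its WBcel235 length.

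From these lists regions were ranked by signal, and summits were joined to miRNA genes of Ensembl release 115 by a distance of at most 500 bp with Python 3.11.15, numpy 2.4.6, pandas 2.3.3 and scipy 1.17.1. Replicate ranks came from candidates overlapping the pooled region by at least 1 bp. A gene was intronic when it lay inside an intron of a protein-coding gene on either strand. Annotated names replaced older ones in the bantam list, and let-7 was matched through its sequence name. The joining was checked on simulated regions with planted summits. No p-values were computed.

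Members, lists, alternatives and named genes were chosen with earlier results of these data known. Named genes were those with an optimal-list region, the next 10 by rank, the best ranked intronic and unflagged genes, and listed family members. The 4 summit windows and the genes described by a nearby RNA gene were chosen after their values were seen.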

Additional observations from a re-analysis of the deposited data

How the results depend on the processing

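The counts of genes and of intronic genes moved with the search distance. Within 250 bp, 5 miRNA genes had an optimal-list region, at 5 distinct regions, with 1 intronic and 0 flagged. Within 1000 bp there were 23 genes on 11 regions, 14 of them intronic and 5 flagged, and the median rank was 6874. Counting shared regions once gave 10 genes. Using the top 652 of a single replicate gave 10 to 17 genes, 5 to 9 of them intronic, with the lower counts when replicate 2 was left out. The flagged count was 1 at a flag distance of 250 bp and 6 at 1000 bp, where 3 unflagged genes outside protein-coding genes remained with an optimal-list region. With only same-strand hosts, 2 genes were intronic and 11 outside and unflagged. Without the mir-51 family and mir-55b, an alternative chosen after seeing the data, 10 genes and 6 regions remained. The other 41 of 58 recomputed values moved by less than 1.5 times or less than their interval. No paired analysis was possible because there was 1 group. With 2 replicates and unknown depth, a gene without a candidate is not shown to be unbound.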

Other observations

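Low registry numbers went with stronger regions, a split chosen after the values were seen. Numbers were given roughly in order of discovery, and the early ones include many abundant and conserved miRNAs. Of the 61 genes numbered under 100 together with let-7, lin-4 and lsy-6, 49 (80.3%, 95% interval 68.2 to 89.4) had a candidate and 13 (21.3%, 11.9 to 33.7) an optimal-list region, with a median rank of 1835. Of the other 200 genes, 85 (42.5%, 35.6 to 49.7) had a candidate and 3 (1.5%, 0.31 to 4.32) an optimal-list region, with a median rank of 12693. The 3 were mir-8186-1, mir-8186-2 and mir-1824. Genes that share a region were counted singly in both sets, so the intervals treat them as separate cases. The split used the number alone, which put mir-55b and mir-58c in the low-numbered set.

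Counts by cluster and chromosome rest on shared regions. Of 18 clusters of 2 or more genes, 3 (16.7%, 3.58 to 41.4) had an optimal-list region, against 8 of 209 single genes (3.83%, 1.67 to 7.4), and the intervals overlap. Among the 8, mir-55b has the same region as the cluster of mir-54, mir-55 and mir-56, and mir-8186-1 and mir-8186-2 share one. By chromosome, 7 of the 16 genes with an optimal-list region were on II, 4 on X, 2 each on I and IV, 1 on III and 0 of 28 on V, where 8 genes had a candidate. By distinct region the 10 were 3 on II, 2 each on X, I and IV, 1 on III and 0 on V.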
